A study of Mus musculus with 12 samples.

Results

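Interferon-stimulated genes are the genes that a cell switches on after an interferon has bound its receptor. A list of 37 of them, chosen by symbol, was followed in RNA from mouse leukaemia, where all 37 were found among the 41214 genes of the count tables. Of these, 33 passed the filter on low counts and were tested together with 13822 genes in all, and Ifit3, Ifi44, Rtp4 and Cxcl10 did not pass. Leukaemic cells came from C57/BL6 mice carrying NUP98-HOXD13, a fusion of a nuclear pore gene and a homeobox gene that gives rise to myelodysplastic syndrome and leukaemia in the mouse. The controls carry this fusion too. The 2 genotypes differed at Gfi1, which encodes a zinc finger repressor of blood progenitors: Gfi1 KI/wt, called KI here and labelled heterozygous, and Gfi1 KD/KD, called KD and labelled homozygous. Each genotype had 2 mice and 1 RNA library per mouse, and the sources used here give no age, treatment or promoter driving the fusion. In lines named so, the altered allele encodes human GFI1, and KI/wt keeps a wild-type allele that KD/KD lacks, so allele structure and Gfi1 dose cannot be told apart between the groups.

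Type I interferons bind a receptor made of IFNAR1 and IFNAR2. The kinases JAK1 and TYK2 then phosphorylate STAT proteins, among them STAT2, which join IRF9 and bind the interferon-stimulated response element in the promoters of target genes. Interferon gamma uses another receptor and leads to binding at the gamma-activated site. The targets include enzymes that degrade or block viral RNA, sensors of viral nucleic acid, the transcription factors of the response itself, and inhibitors that end it. In haematopoietic cells, interferons drive quiescent stem cells into cycle and restrain the growth of many leukaemias.

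The promoters show which of these genes carry the letters that the interferon factors read. Of the 37 genes, 28 had a promoter in the RefSeq table (GRCm38.p6), taken as 250 bases before to 50 bases after each start. Oas2, Usp18, Mx1, Mx2, Dhx58, Rtp4, Parp9, Parp14 and Zbp1 were not matched. The response element core GAAA NN GAAA, where N is any base, searched on both strands, was found in 18 of the 28 (64.3%), against 3.99% of the 27025 genes in the table. The gamma-activated core TTC NNN GAA, which reads the same on both strands in its fixed letters, was found in 7 of the 28 (25%), against 9.55% of genes. The cores shared bases in Bst2 alone. A match is a description of letters, not a bound site. The windows printed here belong to genes described in detail here, lie wholly before the annotated gene, and are written 5′ to 3′ in the direction of the gene. Capitals mark the core, which appears as TTTC NN TTTC where it lies on the opposite strand.
Rsad2 (chr12:26456548-26456587, minus strand): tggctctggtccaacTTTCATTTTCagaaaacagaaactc
Oas3 (chr5:120777710-120777749, minus strand): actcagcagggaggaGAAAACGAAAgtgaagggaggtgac
Ifit1 (chr19:34640770-34640828, plus strand): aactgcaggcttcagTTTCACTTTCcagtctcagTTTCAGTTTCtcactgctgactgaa
Isg15 (chr4:156200860-156200911, minus strand): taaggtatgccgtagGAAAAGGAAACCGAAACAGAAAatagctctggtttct
Stat2 (chr10:128270261-128270300, plus strand): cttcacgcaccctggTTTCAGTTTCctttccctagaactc
Gbp2 (chr3:142620589-142620628, plus strand): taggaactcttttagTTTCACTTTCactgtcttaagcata
Cxcl10 (chr5:92349078-92349117, minus strand): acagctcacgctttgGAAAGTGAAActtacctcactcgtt
Socs1 (chr16:10785589-10785634, minus strand): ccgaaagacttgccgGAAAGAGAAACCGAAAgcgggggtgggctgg
Irf1, gamma-activated core (chr11:53769909-53769947, plus strand): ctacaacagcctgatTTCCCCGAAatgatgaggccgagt
Isg15 holds 3 overlapping matches, from 78 to 57 bases before the start, and Ifit1 holds 2 separate ones, from 104 to 76 bases before it. The genes whose window holds neither core include Oasl2, Irf7 and Irf9, which says only that these letters are not in the bases searched. Genes with the response element core include both Rsad2, which was far higher in a single KI mouse, and Gbp2, whose level was higher in both KD mice.

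The libraries are named by genotype and replicate, in the order KI replicate 1, KI replicate 2, KD replicate 1 and KD replicate 2, and hold 4581593, 10869534, 11934542 and 10263454 gene counts. Levels follow that order throughout, in CPM, the gene's counts scaled to a common library size by TMM, and 3 counts correspond to 0.696, 0.356, 0.212 and 0.259 CPM. Gfi1 itself stood at 36.2, 89.0, 7.22 and 1.12 CPM (156, 750, 102 and 13 counts), lower in both KD libraries. Its log2 fold change was -3.89 ± 0.95 (SE), with an adjusted p of 0.518 in edgeR. Whether reads from an allele encoding human GFI1 count towards mouse Gfi1 was not tested, so these counts do not measure GFI1 dose. All 10 markers of myeloid progenitors were detected in every library, with a summed level of 5392 to 8037 CPM. KI replicate 1 stood apart from the other libraries: it had the lowest depth, 88.3% of its uniquely aligned reads lay in no gene against 63.2% to 68.3% elsewhere, and 1354 receptor genes for odours, pheromones and tastes, silent in blood cells, reached a total of 820 CPM in it against 119 to 201. Satellite-like loci held 40.5%, 45.8%, 20.2% and 21.9% of the gene counts, a larger share in both KI libraries than in both KD libraries. Whether reads were counted by strand is not given in the sources used here, so sense and antisense reads cannot be told apart. RNA here is bulk, so fewer cells of a type and less RNA per cell cannot be told apart.

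High levels of the interferon-stimulated genes lay mostly in a single KI mouse, replicate 1. Of the 33 genes tested, 29 were highest in KI replicate 1, against 32.6% of all genes tested. The list was followed with earlier results of these data known, so this count is a description and not a test. Socs1 was highest in KI replicate 2 (31.4% of all genes), Gbp2 and Gbp7 in KD replicate 1 (15.5%), and Gbp3 in KD replicate 2 (20.5%). At the other end, 15 genes were lowest in KI replicate 2 (23.3% of all genes), 11 in KD replicate 2 (18%), 5 in KD replicate 1 (25.1%) and 2, Gbp3 and Gbp7, in KI replicate 1 (33.6%). The mice with the highest and the lowest level often shared a genotype: 14 genes had their highest value in KI replicate 1 and their lowest in KI replicate 2, against 8.95% of all genes. Summed over the 37 genes, the level was 1268, 372, 666 and 552 CPM.

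Between genotypes, 0 of the 33 genes passed edgeR's quasi-likelihood test with Benjamini-Hochberg adjustment in either direction, and 0 of 13822 genes did (0% called higher, 0% called lower). At an unadjusted p under 0.05, 3 genes were lower in KD (Rsad2, Oasl2 and Ifit2) against 8.34% of all genes, and 0 were higher against 1.29%. Log2 fold changes, KD minus KI, were negative for 27 of 33 genes, against 55.5% of all genes, and their median was -0.63 against -0.06. The count of negative values was 22 with the replicate number as a block, 19 with library size only as scaling and 17 in limma-voom. The medians there were -0.38, -0.31 and -0.10, against -0.03, 0.37 and -0.05 over all genes. Both KD libraries lay below both KI libraries for 6 genes (Rsad2, Oasl2, Ifit2, Ddx58, Eif2ak2 and Socs1), where the share over all genes was 23.5%. Both lay above for 3 (Gbp2, Gbp3 and Gbp7), where it was 14.5%. The corresponding shares of the 33 genes, 18.2% and 9.09%, were below these. DESeq2 called Rsad2 and Oasl2 lower in KD, where it called 0.991% of all genes, and 0 of the 33 higher (0.0362%). With no filter on low counts edgeR also called Rsad2 and Oasl2 lower (0.459% of all genes) and 0 higher (0.0952%). In limma-voom 0 were called (0% of all genes). With 2 mice against 2, the smallest exact two-sided permutation p of a single gene is 0.333, and every p-value reflects no more than the variation among these 4 animals.

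**Figure D1:**
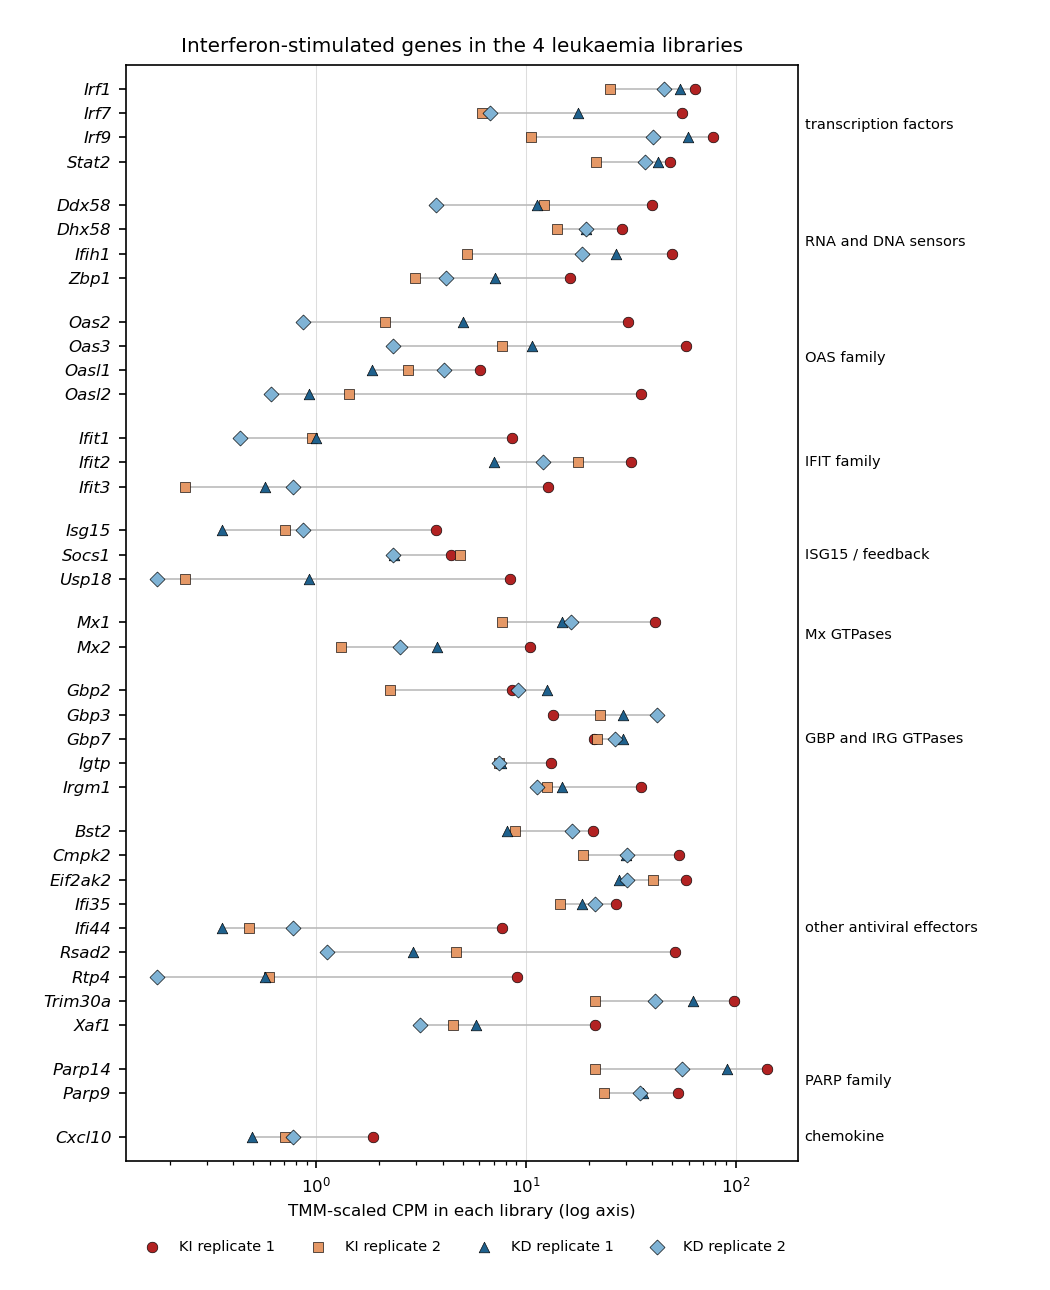
Level of each of the 37 interferon-stimulated genes in the 4 libraries, in TMM-scaled CPM on a log axis, grouped by role, with 1 symbol per mouse and a line from the lowest to the highest. KI replicate 1 (red circles) lies at the right end for most genes, for example Rsad2 at 51.5 CPM against 1.12 to 4.63 elsewhere, while the Gbp2, Gbp3 and Gbp7 lines end in a KD mouse.

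Among the transcription factors, all 4 were lowest in KI replicate 2 and highest in KI replicate 1, with both KD mice between. Stat2, the partner of IRF9 (chromosome 10, 128270498 to 128292853), stood at 48.5, 21.6, 42.5 and 37.1 CPM (209, 182, 601 and 430 counts). Its log2 fold change was 0.19 ± 0.45 (SE), with adjusted p = 0.980 in edgeR. The DNA-binding partner Irf9 had 78.4, 10.6, 59.1 and 40.3 CPM, so that KI replicate 2 lay well under the other mice. Irf7, which amplifies the production of type I interferon (chromosome 7, 141263183 to 141266499), had 55.4, 6.17, 17.7 and 6.74 CPM (239, 52, 250 and 78 counts). KD replicate 2 and KI replicate 2 were close to each other and KI replicate 1 was far above, with a log2 fold change of -1.32 ± 1.03 and adjusted p = 0.796 in edgeR. Irf1, a factor induced most directly by interferon gamma, had 63.8, 25.2, 54.4 and 45.5 CPM (275, 212, 769 and 527 counts), a narrower range, and a log2 fold change of 0.18 ± 0.48 with adjusted p = 0.987 in edgeR.

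The sensors of foreign RNA and DNA were also highest in KI replicate 1. Ddx58, which encodes the RNA sensor RIG-I, stood at 40.1, 12.2, 11.3 and 3.71 CPM (173, 103, 159 and 43 counts). Both KD mice were below both KI mice, but KI replicate 2 and KD replicate 1 were nearly level, and the log2 fold change of -1.79 ± 0.78 had adjusted p = 0.535 in edgeR. Ifih1, which encodes the sensor MDA5, differed in its order: 49.6, 5.22, 27.0 and 18.5 CPM, with both KD mice between the KI mice. Zbp1, a sensor of Z-form nucleic acid, followed the same order at 16.2, 2.97, 7.15 and 4.15 CPM (70, 25, 101 and 48 counts), with a log2 fold change of -0.74 ± 0.87 and adjusted p = 0.921 in edgeR. Dhx58, which encodes LGP2, a regulator of the other RNA sensors, varied least, at 28.8, 14.0, 19.3 and 19.3 CPM (124, 118, 273 and 223 counts), with a log2 fold change of -0.14 ± 0.44 and adjusted p = 0.991 in edgeR.

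The OAS family, whose enzymes make the 2′-5′ oligoadenylates that activate RNase L, showed some of the steepest drops from KI replicate 1 to the other mice. Oasl2 (chromosome 5, 114896926 to 114912245) had 35.3, 1.42, 0.920 and 0.605 CPM (152, 12, 13 and 7 counts). Its KI mean was 18.3 ± 23.9 CPM and its KD mean 0.762 ± 0.223 CPM (SD, n = 2 each). The KI spread was therefore as large as the mean, and the log2 fold change of -4.54 ± 1.49 had adjusted p = 0.518 in edgeR. Oas3 had 57.7, 7.71, 10.7 and 2.33 CPM (249, 65, 151 and 27 counts), with a log2 fold change of -2.31 ± 1.12 and adjusted p = 0.568 in edgeR. Oas2 had 30.6, 2.14, 5.02 and 0.864 CPM (132, 18, 71 and 10 counts), with -2.44 ± 1.37 and adjusted p = 0.640 in edgeR. In Oas2 and Oas3 the groups overlapped, since KD replicate 1 lay above KI replicate 2. Oasl1, which represses translation of Irf7, had 6.03, 2.73, 1.84 and 4.06 CPM and a far smaller gap.

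The IFIT proteins bind viral RNA and block its translation. Ifit1 (chromosome 19, 34640889 to 34650009) had 8.58, 0.949, 0.991 and 0.432 CPM (37, 8, 14 and 5 counts), with a log2 fold change of -2.68 ± 1.23 and adjusted p = 0.556 in edgeR. Its span lies within Ifit1bl1 on the opposite strand, so its counts are uncertain. Ifit2 had 31.8, 17.8, 7.01 and 12.0 CPM (137, 150, 99 and 139 counts). Both KI mice lay above both KD mice, and its log2 fold change of -1.38 ± 0.48 had adjusted p = 0.518 in edgeR. Ifit3 did not pass the filter: 55 counts lay in KI replicate 1, against 2, 8 and 9 in the others.

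ISG15 is a ubiquitin-like protein that is attached to other proteins, and USP18 removes it and also blocks the type I receptor. Isg15 (chromosome 4, 156199424 to 156200818) was low in every library, at 3.71, 0.712, 0.354 and 0.864 CPM from 16, 6, 5 and 10 counts, which gives a 95% Poisson interval of 2.12 to 6.03 CPM in KI replicate 1 and of 0.115 to 0.826 in KD replicate 1. The receptor genes silent in blood cells had a 99th percentile of 2.78 CPM in KI replicate 1, inside the Isg15 interval there. The log2 fold change of Isg15 was -1.80 ± 1.13 with adjusted p = 0.693 in edgeR. Usp18 rested on 36, 2, 13 and 2 counts (8.35, 0.237, 0.920 and 0.173 CPM), with -2.88 ± 1.66 and adjusted p = 0.657 in edgeR. KI replicate 2 was at or under the level of 3 counts, as was KD replicate 2. Socs1, an inhibitor of the JAK kinases (chromosome 16, 10783808 to 10785536), went against this pattern at 4.41, 4.86, 2.34 and 2.33 CPM (19, 41, 33 and 27 counts). The mice of each genotype were close to each other, and the log2 fold change was -0.99 ± 0.64 with adjusted p = 0.705 in edgeR.

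The Mx GTPases trap viral nucleocapsids, and RefSeq annotates Mx1 and Mx2 in this strain's genome as transcribed pseudogenes. Mx1 (chromosome 16, 97447035 to 97462906) had 41.3, 7.71, 14.9 and 16.3 CPM (178, 65, 211 and 189 counts), with a log2 fold change of -0.63 ± 0.76 and adjusted p = 0.923 in edgeR. Mx2 had 10.4, 1.31, 3.75 and 2.51 CPM (45, 11, 53 and 29 counts), with -0.88 ± 1.03 and adjusted p = 0.921 in edgeR. In both genes the KD mice were close to each other and lay between the KI mice, which were far apart.

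The guanylate-binding proteins and immunity-related GTPases attack the membranes around intracellular pathogens, and 3 guanylate-binding genes were the only ones of the 33 to have their own highest value in a KD mouse. Gbp3 (chromosome 3, 142560016 to 142573213) had 13.5, 22.7, 29.2 and 42.0 CPM (58, 191, 412 and 486 counts), and it was lowest in KI replicate 1. Its KI mean was 18.1 ± 6.51 CPM and its KD mean 35.6 ± 9.08 CPM (SD, n = 2 each), with a log2 fold change of 0.97 ± 0.40 and adjusted p = 0.530 in edgeR. Gbp2 had 8.58, 2.25, 12.6 and 9.16 CPM (37, 19, 178 and 106 counts), with 1.04 ± 0.73 and adjusted p = 0.748 in edgeR. KI replicate 1 nearly reached KD replicate 2 in Gbp2, so most of that difference came from KI replicate 2. Gbp7, at 21.1, 21.7, 29.1 and 26.5 CPM, varied little. Irgm1, an autophagy regulator of the other family, followed the main pattern at 35.5, 12.6, 14.9 and 11.3 CPM (153, 106, 211 and 131 counts), with -0.86 ± 0.56 and adjusted p = 0.714 in edgeR. Igtp had 13.2, 7.47, 7.57 and 7.43 CPM, level in every mouse but KI replicate 1. Gbp genes are close paralogues, so reads could be split between them.

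Among the other antiviral effectors, all 7 tested were highest in KI replicate 1. Rsad2 encodes viperin, a radical SAM enzyme that makes a chain-terminating nucleotide (chromosome 12, 26442743 to 26456452). It stood at 51.5, 4.63, 2.90 and 1.12 CPM (222, 39, 41 and 13 counts), a KI mean of 28.1 ± 33.1 and a KD mean of 2.01 ± 1.26 CPM (SD, n = 2 each). Both KI mice lay above both KD mice, but KI replicate 1 was 11.1 times KI replicate 2, and the log2 fold change of -3.77 ± 1.21 had adjusted p = 0.518 in edgeR. Its neighbour Cmpk2, a mitochondrial nucleotide kinase often induced together with it, had 53.8, 18.7, 30.1 and 30.2 CPM, so KI replicate 2 was lowest and not the KD mice. Eif2ak2, which encodes the translation-blocking kinase PKR, had 57.7, 40.5, 27.7 and 30.2 CPM (249, 341, 392 and 350 counts). There the genotypes did not overlap and the KD mice were close, but KI replicate 2 lay nearer to KD replicate 2 than to KI replicate 1. The log2 fold change of Eif2ak2 was -0.76 ± 0.32, with adjusted p = 0.531 in edgeR. Xaf1, a pro-apoptotic factor, had 21.3, 4.51, 5.80 and 3.11 CPM (92, 38, 82 and 36 counts), with -1.51 ± 0.84 and adjusted p = 0.632 in edgeR. Trim30a, a ubiquitin ligase, had 98.8, 21.4, 62.6 and 41.4 CPM, Bst2 (tetherin) 20.9, 8.90, 8.14 and 16.5 CPM, and Ifi35 26.9, 14.5, 18.5 and 21.3 CPM. The genotypes overlapped in all of these, with log2 fold changes of -0.20, -0.26 and -0.05. Ifi44 and Rtp4, which did not pass the filter, had 33 and 39 counts in KI replicate 1 and between 2 and 9 in every other library.

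The ADP-ribosyltransferases Parp9 and Parp14 were of the type with KI replicate 2 lowest. Parp14 had 142, 21.4, 91.1 and 55.8 CPM (612, 180, 1288 and 646 counts), with a log2 fold change of -0.14 ± 0.83 and adjusted p = 0.996 in edgeR. Parp9 had 53.1, 23.6, 36.2 and 35.0 CPM (229, 199, 512 and 405 counts), with -0.10 ± 0.44 and adjusted p = 0.994 in edgeR, and it overlaps Dtx3l. The chemokine Cxcl10, which attracts T cells, had 8, 6, 7 and 9 counts and was not tested. These are 1.86, 0.712, 0.495 and 0.778 CPM, and the Poisson intervals of the libraries overlap, so no difference was detectable from these counts. The span of Cxcl10 lies within Art3 on the opposite strand, so its counts are uncertain beyond their depth.

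The direction of the genotype difference turned on which KI mouse was used. Without KI replicate 1, 24 of 33 genes had a positive log2 fold change (50.3% of all genes) and the median was 0.60, against 0.01 over all genes. In that fit edgeR called 1 gene higher in KD, Irf9, with a log2 fold change of 2.38 and adjusted p = 0.0441 (1.29% of all genes called higher), and 0 lower (0.939%). Without KI replicate 2, 30 of the same 33 genes had a negative value and the median was -0.96, against 43.1% and 0.14 over the genes also tested with all 4 libraries. In that fit edgeR called 13 of the 33 lower in KD (13.6% of those genes) and 1 higher, Gbp3 (2.06%). The 13 were Rsad2, Oasl2, Oas2, Oas3, Ifit1, Ifit2, Isg15, Usp18, Mx1, Irf7, Ddx58, Irgm1 and Xaf1. Ifit3, Ifi44, Rtp4 and Cxcl10 passed the filter in that fit but not with all 4 libraries, and are left out of these counts. They passed through KI replicate 1, where each was highest, so the filter itself set their negative sign. With them, 34 of 37 genes were negative (52.6% of all genes in that fit), 16 were called lower (23%) and 1 higher (1.7%). Both fits rest on a lone KI mouse, which is assumed to vary as the KD mice do. Taken singly, 17 of 33 genes were lower in KI replicate 2 than in both KD mice (30.2% of all genes), and 30 of 33 were higher in KI replicate 1 than in both (40.2%).

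**Figure D2:**
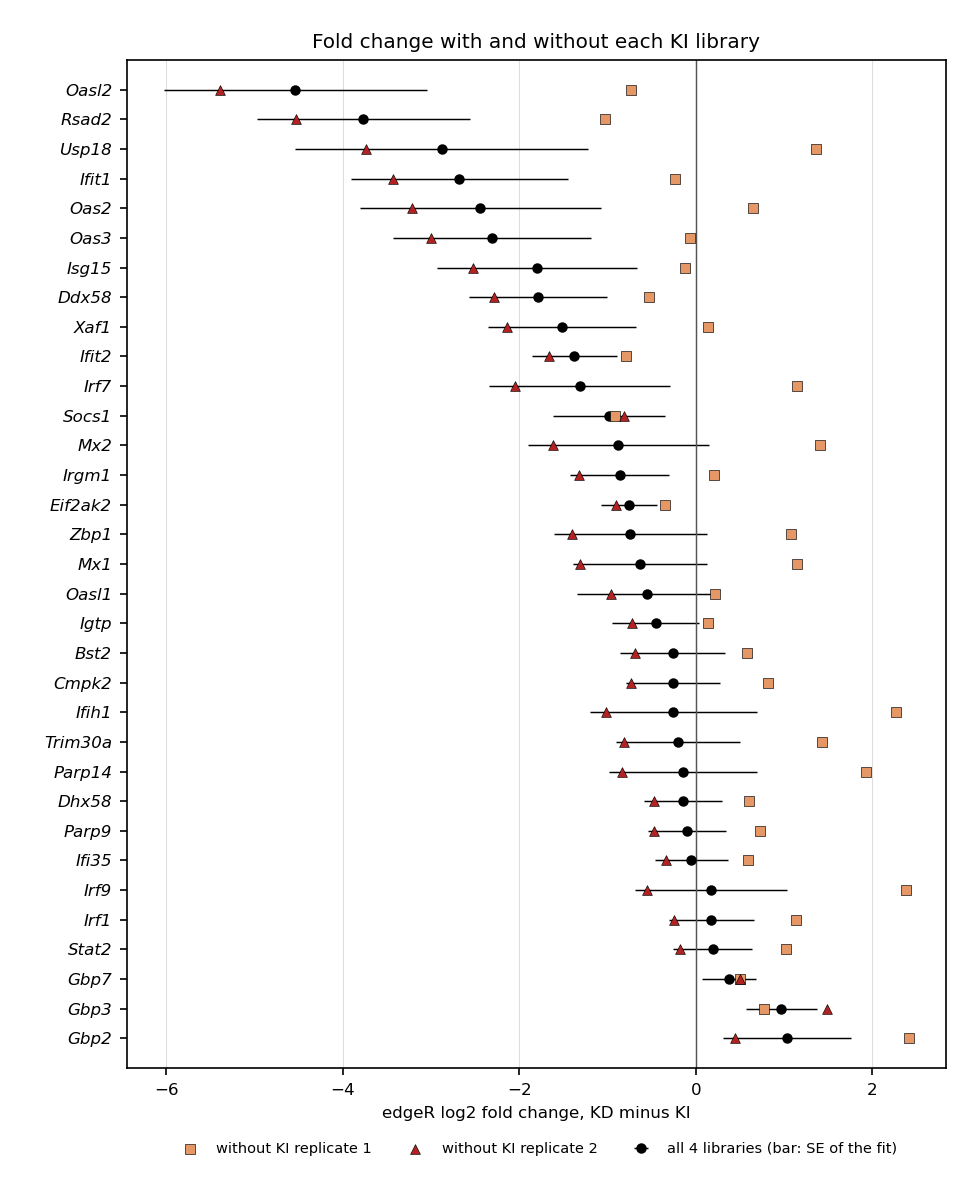
Log2 fold change, KD minus KI, of the 33 tested genes in edgeR with all 4 libraries (black, bar: SE of the fit), without KI replicate 1 (orange squares) and without KI replicate 2 (red triangles). The median moves from -0.63 to 0.60 when KI replicate 1 is left out and to -0.96 when KI replicate 2 is left out. Rsad2, Oasl2, Oas3, Ifit1, Ifit2, Isg15, Ddx58, Eif2ak2 and Socs1 stay below 0 in all 3 fits, and Gbp2, Gbp3 and Gbp7 stay above 0.

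As a set, the 33 genes differed more between the KI mice than between the KD mice, and so did all genes tested. On the log2(CPM + 1) scale, the median difference of KI replicate 1 minus KI replicate 2 was 1.56 over the 33 genes and -0.01 over all genes. The middle 50% of all genes ran from -0.56 to 0.79 between the KI mice and from -0.39 to 0.18 between the KD mice. What set the list apart from all genes was its shift towards KI replicate 1. KI replicate 1 was above KI replicate 2 for 30 of 33 genes (49.6% of all genes), and at least 4 times as high for 16 (12% of all genes), with levels under 3 counts raised to that level. For 7 genes it was at least 4 times every other library: Rsad2, Oasl2, Oas2, Oas3, Ifit1, Isg15 and Usp18 (6.14% of all genes). The KD mice differed less. KD replicate 1 minus KD replicate 2 had a median of 0.26 against -0.12 over all genes, and KD replicate 1 was above for 24 of 33 genes (38.7% of all genes), with Oas2 at 5.82 times and Oas3 at 4.58 times KD replicate 2. The 14 genes with KI replicate 1 highest and KI replicate 2 lowest were the 4 transcription factors, Ifih1, Dhx58, Zbp1, the Mx and Parp genes, Cmpk2, Trim30a and Ifi35.

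**Figure D3:**
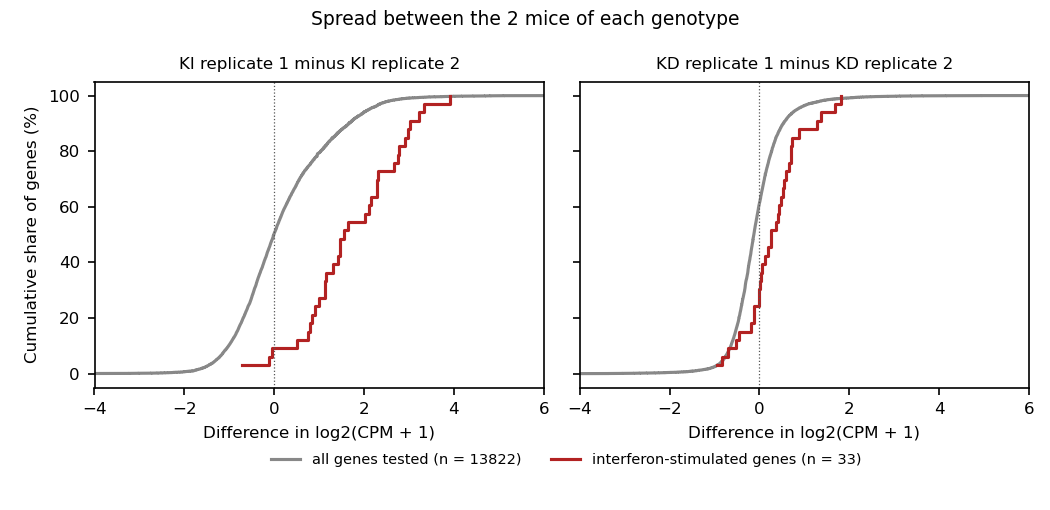
Cumulative share of genes (%) by the difference in log2(CPM + 1) between the 2 mice of a genotype, for the KI mice (left) and the KD mice (right), with the 33 interferon-stimulated genes in red and all 13822 genes tested in grey. The red line lies to the right of the grey one in both panels, with medians of 1.56 against -0.01 for KI and 0.26 against -0.12 for KD.

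Markers of some other cells were also mostly highest in KI replicate 1, while others had other orders. The 6 stroma and endothelium markers summed to 56.4, 9.25, 9.34 and 7.95 CPM, with all 6 detected in every library and all 6 highest in KI replicate 1. The 6 NK cell markers summed to 22.5, 3.08, 2.90 and 4.84 CPM, and 5 were highest in KI replicate 1, with Ncr1 and Gzma at 0 in KI replicate 2, Gzma at 0 in KD replicate 1, and Ncr1 and Klre1 at 0 in KD replicate 2. The 7 T cell markers, all detected, summed to 54.7, 59.6, 9.06 and 12.0 CPM, but their median was 5.80, 2.02, 1.34 and 1.64 CPM, 4 were highest in KI replicate 1 and 3 in KI replicate 2. Markers lower in both KD mice than in both KI mice numbered 4 of 7 for T cells, 7 of 8 for mature neutrophils (sums of 15285, 16246, 3271 and 1428 CPM) and 6 of 6 for erythroid cells (259, 270, 35.4 and 2.25 CPM, Hba-a1 at 0 in KD replicate 2). Of all genes tested, 23.5% had this order. The 10 macrophage markers summed to 195, 82.0, 244 and 196 CPM, while their median was 4.99, 2.91, 0.884 and 2.33 CPM and 6 were lowest in KD replicate 1 (Marco at 0 there and in KI replicate 2). Of the 7 markers of plasmacytoid dendritic cells, which make large amounts of interferon alpha, 5 were highest in KI replicate 1, with a median of 4.64, 0.593, 0.354 and 0.778 CPM. Their sum had another order, at 92.8, 47.1, 113 and 86.8 CPM (Cox6a2 at 0 in KI replicate 1 and KD replicate 1, Klk1 at 0 in KI replicate 2 and KD replicate 1). The 5 B cell markers summed to 18.1, 30.3, 14.2 and 18.3 CPM, and 4 were highest in KI replicate 1 (Pax5 at 0 in KD replicate 2). The part of these cells, and of the receptor gene signal of KI replicate 1, in the interferon-stimulated levels was not tested. The receptor genes had a median of 0.464, 0.119, 0 and 0.0864 CPM each, and a 99th percentile of 2.78 CPM in KI replicate 1. When these genes and satellite-like loci were left out of the fit, 31 of the genes were tested, the median log2 fold change was -0.56 against -0.001 over all genes, and 28 were highest in KI replicate 1.

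Few counts lay on the ligands. Over 21 interferon genes, counts came to 23, 6, 10 and 6, and 0 passed the filter. Ifnb1 had 1, 0, 1 and 1 counts and Ifng 9, 0, 5 and 2. The KI replicate 1 value for Ifng was its highest, and no level could be read from so few counts.

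Genes for the receptors and kinases had mostly positive log2 fold changes. Of 10 genes for the receptors and JAK-STAT signalling, 0 were called by edgeR (2 had an unadjusted p under 0.05), 8 had a positive log2 fold change, and the median was 0.30 against -0.06 over all genes. Ifnar1 stood at 89.1, 65.3, 133 and 86.9 CPM and Ifnar2 at 78.9, 67.6, 124 and 105 CPM, with log2 fold changes of 0.51 ± 0.34 (adjusted p = 0.720) and 0.64 ± 0.27 (adjusted p = 0.531) in edgeR. Tyk2, the kinase bound to IFNAR1, had 84.9, 72.1, 138 and 142 CPM and a log2 fold change of 0.83 ± 0.26 (adjusted p = 0.518 in edgeR). Both KD mice were above both KI mice for 4 of the 10, Tyk2, Ifnar2, Ifngr2 and Il10rb (14.5% of all genes), and for 2 of the 10 with upper quartile scaling (11%). Ifnlr1, the receptor chain for interferon lambda, had 21.8, 8.78, 3.61 and 1.64 CPM and -2.52 ± 0.70 (adjusted p = 0.518 in edgeR).

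In the relay from nucleic acid sensing to interferon production, both KD mice lay above both KI mice for 8 of 12 tested genes, against 14.5% of all genes. Positive log2 fold changes were found for 10 of the 12 and the median log2 fold change was 0.29, with 0 genes called by edgeR and 3 at an unadjusted p under 0.05. Tmem173, which encodes the DNA-sensing adaptor STING, had 39.2, 35.8, 68.9 and 61.6 CPM, so that the mice of each genotype were close (log2 fold change 0.80 ± 0.27, adjusted p = 0.518 in edgeR). Mavs, the adaptor of RIG-I and MDA5, had 14.6, 14.9, 26.9 and 27.8 CPM (0.89 ± 0.32, adjusted p = 0.518 in edgeR). Irf5, a factor downstream of Toll-like receptors, had 148, 87.6, 218 and 212 CPM (0.87 ± 0.35, adjusted p = 0.518 in edgeR). The other genes with this order were Myd88, Tlr9, Ticam1, Tbk1 and Irf3. The count of genes with both KD mice above was 8 with RLE scaling (19.1% of all genes), 7 with upper quartile scaling (11%) and 9 with library size only (42.3%). Between the KI mice this list had a median difference of 0.01 in log2(CPM + 1), against 1.56 for the interferon-stimulated genes. Of 7 tested genes that clear nucleic acids, 5 had a positive log2 fold change, the median was 0.09 and edgeR called 0, with 0 at an unadjusted p under 0.05. Trex1 was listed at 0 counts in all 4 libraries. Dnase2a, Samhd1 and Rnaseh2c had log2 fold changes of 0.46, 0.43 and 0.10, and Samhd1, a nucleotide hydrolase that interferon induces, had 493, 92.9, 567 and 222 CPM, lowest in KI replicate 2.

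In a wider list of 45 other interferon-stimulated genes, KI replicate 1 again held most of the highest values. Of the 42 tested, edgeR called 0 (2 had an unadjusted p under 0.05), 29 had a negative log2 fold change and the median was -0.37, against -0.06 over all genes. The median was 0.02 both with library size only and in limma-voom, where that of all genes was 0.37 and -0.05. KI replicate 1 was highest for 32 (32.6% of all genes) and KI replicate 2 lowest for 24 (23.3% of all genes), and KI replicate 1 minus KI replicate 2 had a median of 1.08 in log2(CPM + 1). Without KI replicate 1, 33 had a positive value and edgeR called 4 higher in KD (1.29% of all genes). Without KI replicate 2, 36 had a negative value and edgeR called 10 lower in KD, where it called 23% of all genes in that fit and 13.6% of those also tested with all 4 libraries. Ly6e, a surface protein that hinders viral fusion, was an exception at 190, 94.4, 376 and 476 CPM, with both KD mice well above both KI mice (log2 fold change 1.58 ± 0.43, adjusted p = 0.518 in edgeR). Lgals9 and Ube2l6, the conjugating enzyme for ISG15, had -0.80 ± 0.31 and -1.21 ± 0.50 (adjusted p = 0.518 and 0.521 in edgeR). Of 27 genes of interferon gamma and antigen presentation, 16 were tested, with 7 positive and 9 negative values, a median of -0.04 and 0 called by edgeR (1 at an unadjusted p under 0.05). Gbp9, Gbp4 and Ifi47 had log2 fold changes of -3.14 ± 1.25, -2.52 ± 1.12 and -0.62 ± 0.40 (adjusted p = 0.518, 0.543 and 0.703 in edgeR). Gbp9 and Gbp4 repeated the order of Oasl2, with 14.1 and 11.6 CPM in KI replicate 1 and at most 1.42 CPM elsewhere.

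**Figure D4:**
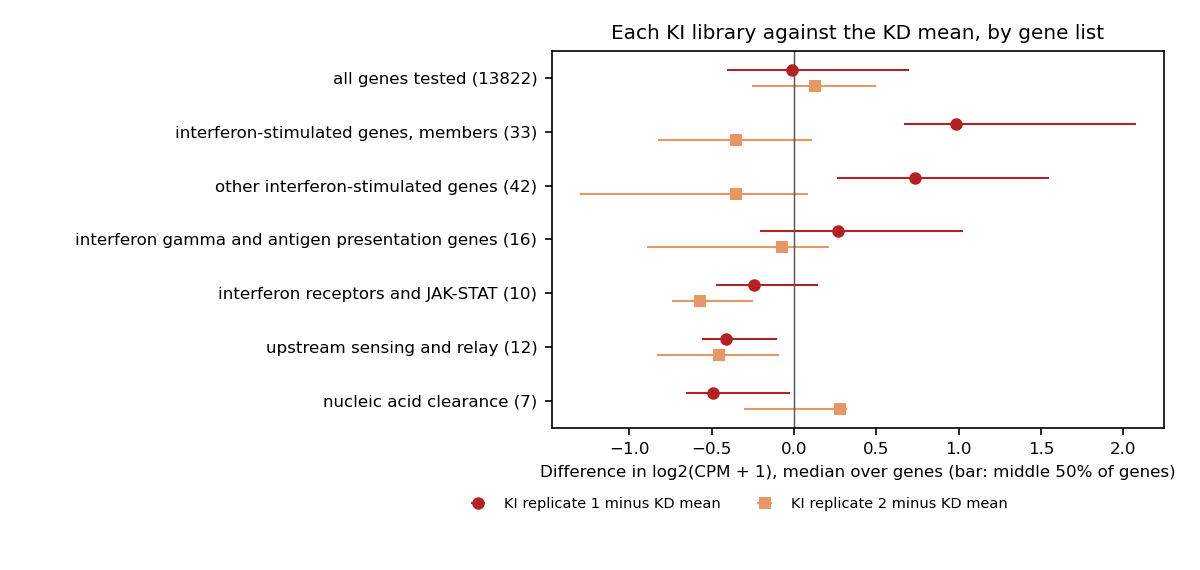
Difference in log2(CPM + 1) between each KI library and the mean of the KD libraries, as the median over the genes of each list (bar: middle 50% of genes), with the number of genes tested in brackets. For the 33 interferon-stimulated genes the medians are 0.98 for KI replicate 1 and -0.35 for KI replicate 2, on opposite sides of 0, and for upstream sensing and relay -0.42 and -0.46, on the same side.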

How the data were processed

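TruSeq Stranded libraries were made from RNA of the leukaemic cells of each mouse, per the labels' protocols. The authors deposited raw counts per Ensembl gene, made with TopHat2 2.0.10, SAMtools, HTSeq and DESeq on build GRCm38, per the submitters' processing notes. The strand setting and annotation release are not given in those sources. Entries of the deposited count files that name no gene, between 93.2% and 97.9% of each total, were left out. The chromatin tables (Bowtie2 2.10, HOMER, mm10) hold 1616 columns that name neither antibody nor mouse and were not used.

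Counts were analysed in R 4.3.3 with edgeR 4.0.16: filterByExpr by genotype, TMM factors (0.957, 0.778, 1.19 and 1.13), then glmQLFit and glmQLFTest on genotype alone, with Benjamini-Hochberg adjustment over all 13822 genes at 0.05. The fit had a common dispersion of 0.204, with 3.56 prior degrees of freedom. CPM is scaled by these factors, and an offset of 1 CPM was added for differences on a log2 scale. Poisson intervals and the level of 3 counts cover counting error only, since PCR reads without molecular identifiers are not independent molecules. The edgeR fit was tested on data simulated at a lower dispersion than these data have, which does not show its power here.

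Named in full were the 3 genes of each role with the lowest p, plus Rsad2, Oasl2, Ifit1, Isg15, Stat2, Irf7 and Cxcl10, and in each pathway list the 3 with the lowest p plus Ifnar1, Ifnar2, Ifnb1 and Ifng, and some genes of the lists are not reported here. The genes, lists and rules were chosen with earlier results of these data known. Gene positions, promoters and starts are from RefSeq for GRCm38.p6. Alternatives were scaling by library size only, by RLE or by upper quartiles, other filters, DESeq2 1.42.0, limma-voom (limma 3.58.1), the replicate number as a block, leaving out satellite-like and receptor loci, leaving out each library in turn with the filter rerun, and, for the promoters, a stricter core and a shorter window.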

Additional observations from a re-analysis of the deposited data

How the results depend on the processing

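Genes called higher in KD numbered 0, but 5 in DESeq2 and 29 with no filter on low counts, and genes called lower 137 and 140. Of the interferon-stimulated genes, 2 were called lower in DESeq2 and 2 with no filter. Leaving out each library in turn gave 2 to 284 genes called higher, 9 to 3846 lower, 0 to 1 interferon-stimulated genes higher and 0 to 16 lower, and a median log2 fold change of -1.31 to 0.60, positive without KI replicate 1. These counts and medians cover the 33 genes without KI replicate 1 and all 37 in the other fits. The genes added there, Ifit3, Ifi44, Rtp4 and Cxcl10, were each highest in KI replicate 1. Without KI replicate 2 they passed the filter through that library, so their negative values in that fit were set by the filter. Without KI replicate 2 the median was -0.96 and 13 were called lower among the 33 genes tested with all 4 libraries, a count added after seeing the data. The highest of these counts came without KI replicate 2, apart from the 1 interferon-stimulated gene called higher, which came without either KI library. On the scaling of all 4 libraries, a comparison added after seeing the data, both KD mice lay above the remaining KI mouse for 17 genes without KI replicate 1 (30.2% of all genes) and below it for 6 (47.3%), and below it for 30 without KI replicate 2 (40.2%) and above it for 3 (41.1%). Library size only moved the median of all genes from -0.06 to 0.37 and that of the 33 genes to -0.31. Satellite-like loci held a larger share of the gene counts in both KI libraries, and their part in this shift was not tested. With at least 5 CPM in 2 libraries, only 25 of the genes were tested, and 3 of these had both KD mice below both KI mice. The count highest in KI replicate 2 was 0 of 25 with that filter. It was 0 of 33 with upper quartile scaling and with library size only, and 0 of 31 without satellite-like and receptor loci. The count highest in KD replicate 1 was 4 of 33 with library size only and 5 of 37 with no filter. With no filter, 3 of 37 were highest in KD replicate 2. The shares over all genes under these settings are not given here, so these counts are not set against them. The stricter core AGTTTC NN TTTC was found in 10 of the 28 genes with a promoter (0.303% of all genes), and the main core in 13 (1.85%) within 150 bases before the start. In limma-voom the median was -0.10.

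Replicate numbers are shared between genotypes, but nothing says that they pair the mice. Deviations of same-numbered libraries from their group means correlated across 13822 genes (r = 0.31), and with 2 pairs this does not establish a pairing. With the replicate block, edgeR called 7 genes lower, and the median of the 33 was -0.38.

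Some single genes changed sign, and the cause was not tested. With library size only the values were Bst2 0.090, Cmpk2 0.10, Dhx58 0.23, Ifi35 0.33, Ifih1 0.060, Parp14 0.18, Parp9 0.27 and Trim30a 0.13. With no filter they were Bst2 0.020, Cmpk2 0.044, Dhx58 0.13, Ifi35 0.21, Ifih1 0.12, Parp14 0.21, Parp9 0.18 and Trim30a 0.13. In limma-voom they were Cmpk2 0.032, Dhx58 0.051, Ifi35 0.10, Ifih1 0.88, Mx1 0.082, Mx2 0.081, Parp14 0.49, Parp9 0.081, Trim30a 0.26 and Zbp1 0.017. With the replicate block they were Ifi35 0.0090, Ifih1 0.40, Parp14 0.36, Parp9 0.0055 and Trim30a 0.14. Ifi35 was 0.017 with RLE scaling and 0.018 in DESeq2, and Irf9 -5.1e-05 with upper quartile scaling. Leaving out each library in turn gave ranges that crossed 0 for Bst2 (-0.75 to 0.58), Cmpk2 (-0.74 to 0.82), Dhx58 (-0.48 to 0.60), Ifi35 (-0.34 to 0.59), Ifih1 (-1.02 to 2.27), Igtp (-0.72 to 0.14) and Irf1 (-0.25 to 1.13). The same held for Irf7 (-2.05 to 1.15), Irf9 (-0.55 to 2.38), Irgm1 (-1.33 to 0.21), Mx1 (-1.31 to 1.15), Mx2 (-1.62 to 1.41), Oas2 (-4.01 to 0.65), Oasl1 (-1.13 to 0.22) and Parp14 (-0.84 to 1.94). It also held for Parp9 (-0.48 to 0.73), Stat2 (-0.18 to 1.02), Trim30a (-0.82 to 1.43), Usp18 (-4.29 to 1.36), Xaf1 (-2.14 to 0.14) and Zbp1 (-1.41 to 1.08). Rsad2, Oasl2, Oas3, Ifit1, Ifit2, Isg15, Ddx58, Eif2ak2, Socs1, Gbp2, Gbp3 and Gbp7 kept their direction under every alternative in which they were tested. Depth limits Isg15, Usp18, Ifit3, Rtp4 and Cxcl10, which rest on few counts outside KI replicate 1.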

Other observations

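Some genes of interferon gamma signalling that did not pass the filter had counts mostly in KI replicate 1. Iigp1, an immunity-related GTPase, had 23, 2, 2 and 0 counts. Gbp8 had 22, 3, 3 and 4, and the chemokine Cxcl11 12, 1, 1 and 1. Ciita, the activator of MHC class II genes, was tested and stood at 18.3, 0.712, 7.85 and 2.16 CPM (79, 6, 111 and 25 counts), high in replicate 1 of both genotypes. Parp12 had 28.1, 2.37, 22.2 and 16.3 CPM and Ms4a4c 70.0, 3.56, 56.8 and 33.0 CPM, with KI replicate 2 far under the other mice in both. These genes were chosen after their values were seen.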
